A study of Mus musculus with 8 samples.

Results

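The genes described here are the Roundabout receptors Robo1, Robo2 and Robo3 and the Slit ligands Slit1, Slit2 and Slit3, 6 of the 26711 features in the table. They were chosen by name, as the Robo and Slit genes of the nervous system, and all 6 were present in the matrix. The choice was made with earlier results of these data known. The shares of called pairs below are therefore not those of a set chosen blind. The data are single-nucleus RNA-seq of mouse primary visual cortex (V1) at postnatal day 21, in 8 libraries that form 4 groups of 1 male and 1 female library each. Every mouse, controls included, carried floxed alleles of Nr3c1, the gene of the glucocorticoid receptor (GR), and received an AAV at birth. The vector expressed an inactive Cre (ΔCre; GR-Con) or Cre (GR-KO) from the GfaABC1D promoter, which is active in astrocytes, so the deletion was aimed at infected astrocytes and not at the neurons in which most of these transcripts were found. Mice were normally reared (NR) or kept in darkness from birth to collection (DR), and the 4 groups are named by rearing and vector.

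Slits are large secreted proteins that bind Robo receptors on growth cones and migrating cells, where they mostly repel. In the developing cortex the pathway guides callosal and thalamic axons, positions interneurons and shapes dendrites and axon branches. Robo1 and Robo2 are the main Slit receptors of forebrain neurons. Robo3 diverged in mammals: it binds the ligand NELL2 rather than Slits and acts in commissural axons. Slit1 is largely neuronal, whereas Slit2 and Slit3 are also made outside the nervous system, for example by vessels and mesenchyme.

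In the GENCODE annotation of GRCm38 (mm10) Robo1 lay on chromosome 16 (72308306 to 73046095, plus strand), Robo2 on chromosome 16 (73891839 to 74411825, minus), Robo3 on chromosome 9 (37415669 to 37433246, minus), Slit1 on chromosome 19 (41600257 to 41743665, minus), Slit2 on chromosome 5 (47983138 to 48307733, plus) and Slit3 on chromosome 11 (35121224 to 35708507, plus). Slit3 overlapped Gm12122 on the same strand, which held 6798 UMIs against 1451096 for Slit3, so reads could be divided between them. RefSeq (GRCm38.p6) gave promoters for 5 of the 6 genes. The 250 bases before the start of Robo1 and of Slit2, a receptor and a ligand whose levels in L2/3 neurons differed with rearing in opposite directions in GR-Con mice, are shown 5′ to 3′ on the coding strand, with matches to a TATA box (TATAAA) or a GC box (GGGCGGG) on either strand in capitals.

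Robo1 (chr16:72662899-72663148): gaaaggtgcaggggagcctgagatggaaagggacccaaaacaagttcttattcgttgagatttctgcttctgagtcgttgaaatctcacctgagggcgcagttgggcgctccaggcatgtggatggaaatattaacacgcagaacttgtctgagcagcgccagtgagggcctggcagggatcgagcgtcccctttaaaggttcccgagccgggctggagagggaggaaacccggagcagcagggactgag

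Slit2 (chr5:47982905-47983154): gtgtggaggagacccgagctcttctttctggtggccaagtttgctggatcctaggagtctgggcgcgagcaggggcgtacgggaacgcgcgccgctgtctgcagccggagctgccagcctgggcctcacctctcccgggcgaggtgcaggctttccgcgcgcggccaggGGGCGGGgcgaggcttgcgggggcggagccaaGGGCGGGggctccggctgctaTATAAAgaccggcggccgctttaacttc

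The Slit2 window held 1 TATA box and 2 GC boxes and had a GC content of 69.6%. The Robo1 window, which lies inside the longer GENCODE gene, held neither motif and had a GC content of 56%, against a median of 52.4% over 32851 promoters. Of those promoters 12.4% held the TATA box and 23.4% the GC box. Neither window held a cAMP response element (TGACGTCA, 1.55% of promoters), an AP-1 site (TGANTCA, 6.75%) or the hexamer of glucocorticoid response elements (AGAACA, 16.1%).

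The libraries held 9517 to 15161 nuclei and 168632129 to 288774016 UMIs, 102330 nuclei in all, with a median of 14861 to 29223 UMIs per nucleus. Levels are given as CPM, the UMIs of a gene summed per library and cell type and scaled to 1000000 UMIs of that sum, for the 20 cell types deposited with the data and for libraries with at least 10 nuclei of the type. Of the 60 marker genes checked, 48 were highest in their own type. Only 1 of 3 was so for L4 and for L5IT, and 0 of 3 for L5PT and for L6IT. The names of these types are the deposited labels. Sharing of barcode sequences between libraries touched 2452 nuclei. Nr3c1 in astrocytes stood at 207 to 263 CPM in the 4 GR-Con libraries and 268 to 284 CPM in the 4 GR-KO libraries. These counts over the whole gene did not show the deletion, and the reason was not tested. The labels give a sort of nuclei by the DNA dye DRAQ5, and the study's methods add a gate for nuclei without GFP. Cre was counted in GR-KO astrocytes (234 UMIs) and at 0 in GR-Con. In the L2/3 nuclei, Tshz2, a marker of L5NP neurons, was at 4.16 to 6.09 CPM in both NR GR-Con libraries and the NR GR-KO female library but at 154 CPM in the NR GR-KO male library and at 101 to 240 CPM in the 4 DR libraries. L5PT had 59 nuclei in the NR GR-KO female library, and Robo1 was highest in the DR GR-Con male library in 6 of 8 excitatory types. A lower level in a summed library could come from fewer nuclei with the transcript or from less of it per nucleus, which a sum cannot tell apart. The 2 libraries of a group came from different mice.

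Robo1, a Slit receptor, was highest in Vip, Pvalb, Lamp5 and Sst interneurons and in L5PT, the projection neurons of layer 5 that leave the cortex. It stood at 2192 ± 272 CPM in Vip interneurons (SD, n = 8 libraries), 2177 ± 92.6 CPM in Pvalb interneurons and 2138 ± 313 CPM in L5PT. The ranges of these 3 types overlapped, and Vip was above Pvalb in 3 of 8 libraries. Lamp5 (1782 ± 302 CPM) and Sst (1678 ± 197 CPM) interneurons followed, then VLMC (1116 ± 308 CPM, n = 7), the fibroblast-like cells of the meninges, and oligodendrocyte precursors (938 ± 101 CPM). In the other excitatory types Robo1 spread widely, from 835 ± 315 CPM in L6CT to 178 ± 112 CPM in L4 and 83.9 ± 70.1 CPM in L5IT, 3.82% of the Vip level. Astrocytes (104 ± 29.1 CPM), oligodendrocytes (97.2 ± 21.7 CPM) and microglia (55.8 ± 23.1 CPM, n = 5) were at the low end. The chandelier cells (ChC), also interneurons, had 218 ± 118 CPM (n = 3). No neighbouring pair in the order of the 20 types had ranges that did not overlap.

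Robo2 was more even across neurons and more stable across libraries. Lamp5 interneurons led with 1704 ± 134 CPM, above the next type, L6b (1257 ± 105 CPM), in 8 of 8 libraries and with no overlap of the ranges. L5PT (1234 ± 71.1 CPM), Pvalb, Vip and L5IT (1102 ± 73.3 CPM) came next, each overlapping its neighbour. L5IT, near the bottom for Robo1, thus carried Robo2 at 64.7% of its highest level. Excitatory types ended with L4 at 674 ± 60.6 CPM, and oligodendrocytes were lowest at 52.0 ± 13.9 CPM. Across 17 of 20 types Robo2 was at or above 10% of its highest level.

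Robo3 was sparse, and excitatory neurons, which made up 67.8% of the nuclei, held 98.7% of its UMIs. It was at 76.0 ± 27.6 CPM in L5PT, 71.5 ± 13.2 CPM in L2/3, 51.8 ± 10.6 CPM in L6IT, 35.3 ± 14.8 CPM in L6CT and 24.7 ± 4.91 CPM in L4. In L5IT, L5NP and L6b and in the 5 interneuron types its mean was at most 3.65 CPM. Its ranges in L5PT and L2/3 overlapped. SMC-Peri, the mural cells of vessels, ranked between L6IT and L6CT at 35.7 ± 22.5 CPM (n = 6), on 49 UMIs in all. Endothelial cells (19.3 ± 11 CPM, n = 7) and VLMC (18.0 ± 17.6 CPM, n = 7) each had a library at 0. Robo4, the vascular paralogue and not one of the 6, was found in endothelial cells at 69.8 ± 17.0 CPM and at no more than 1.29 CPM on average elsewhere.

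Among the ligands, Slit1 marked L5NP, the near-projecting neurons of layer 5, at 357 ± 55.2 CPM. L6CT, the corticothalamic neurons, followed at 150 ± 56.4 CPM, with no overlap of the ranges. L6IT (71.1 ± 18.6 CPM), L6b (53.0 ± 21.1 CPM), L5IT (38.0 ± 8.88 CPM), L4 (37.5 ± 13.7 CPM) and L2/3 (34.0 ± 13.7 CPM) formed a slope of overlapping ranges, and L5PT had 9.47 ± 3.13 CPM. Vip (28.5 ± 5.84 CPM), Sst (24.2 ± 6.46 CPM) and Pvalb (24.0 ± 6.65 CPM) interneurons lay between L2/3 and L5PT. Astrocytes were lowest at 2.98 ± 1.64 CPM.

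Slit2 was highest in Pvalb interneurons at 911 ± 104 CPM. L5PT was next at 551 ± 139 CPM, then L4 (213 ± 69.8 CPM), L5IT (198 ± 81.0 CPM) and Sst interneurons (194 ± 25.5 CPM). L2/3 had 128 ± 43.2 CPM and L6CT 18.4 ± 9.89 CPM, and Vip interneurons, among the highest types for Robo1, had the lowest Slit2 mean at 15.2 ± 6.48 CPM.

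Slit3 was led by 3 projection types, L5PT (1475 ± 140 CPM), L2/3 (1417 ± 114 CPM) and L6IT (1173 ± 112 CPM). L4 stood at 659 ± 81.5 CPM without overlapping L6IT, and L5IT at 460 ± 172 CPM. Excitatory nuclei held 97.4% of Slit3 UMIs, 94.5% of Slit1, 83.9% of Robo2, 73.4% of Slit2 and 69.4% of Robo1. Their 67.8% share of nuclei is not their share of all UMIs, which was not computed, because depth differed between types. L6CT nuclei had a median of 15198 or more UMIs in each library, against 6107 in astrocytes and 8864 in oligodendrocytes, pooled over libraries. Outside neurons Slit3 reached 407 ± 352 CPM in VLMC (n = 7), the largest SD of its 20 types, 377 ± 114 CPM in endothelial cells (n = 7) and 281 ± 186 CPM in SMC-Peri (n = 6). The sum of 10 excitatory neuron genes was 3786 to 4946 CPM in NR VLMC and 717 to 1314 CPM in DR VLMC. In endothelial cells it was 3466 to 3777 CPM in NR and 2815 to 3969 CPM in DR. In SMC-Peri it was 4963 to 5658 CPM in NR and 842 to 4003 CPM in DR, and in the excitatory types 6343 to 9261 CPM. The part of neuronal RNA in the Slit3 and Robo3 levels of VLMC, endothelial cells and SMC-Peri was not tested. Slit3 was at 236 ± 36.2 CPM in Pvalb interneurons and 227 ± 57.9 CPM in L6CT.

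**Figure D1:**
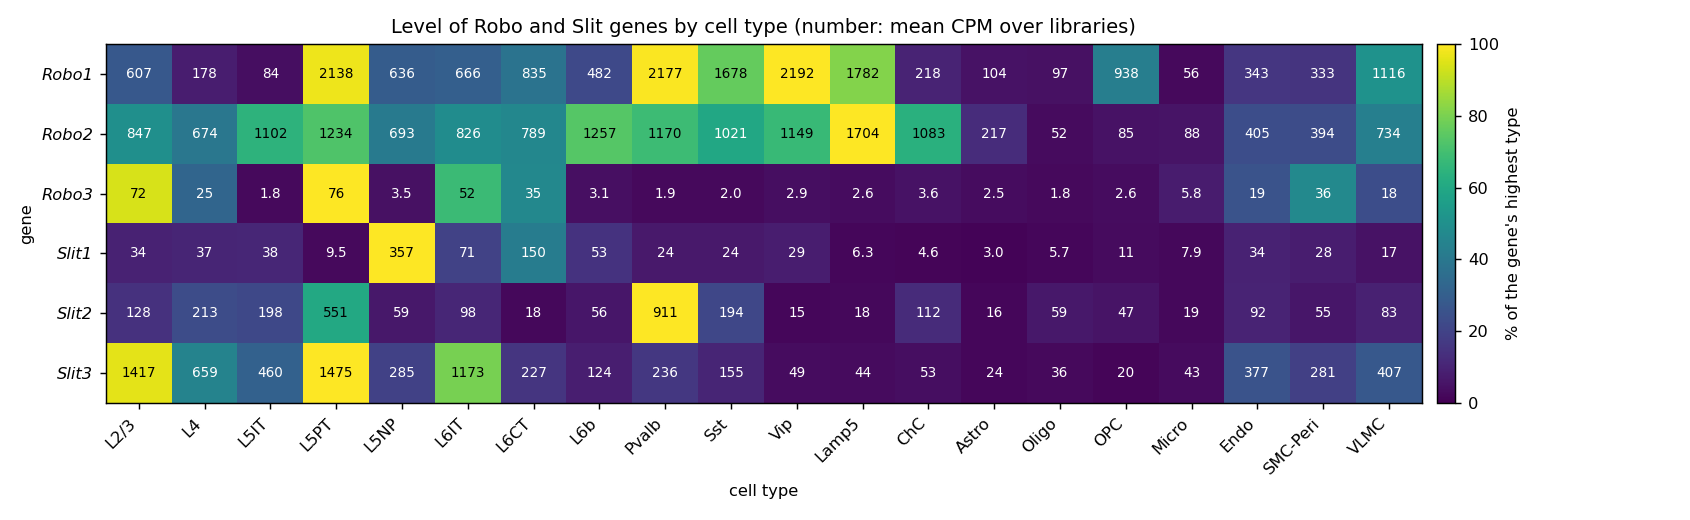
Level of each Robo and Slit gene in each cell type, as a percentage of that gene's highest cell type mean (means over libraries of CPM of summed UMIs). Robo1 is high in L5PT and in the interneuron types other than ChC, Robo2 is spread over neurons, Robo3 and Slit3 are both highest in L5PT, L2/3 and L6IT, Slit1 stands out in L5NP and Slit2 in Pvalb.

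The distributions were compared over the 20 types by the Pearson correlation of mean log2(CPM + 1), as a description. All types came from the same 8 libraries. The closest pair among the 6 genes was Robo3 with Slit3 (r = 0.75), and the least alike were Slit1 and Slit2 (r = 0.08). Robo1 and Robo2 had r = 0.53. Among 13626 genes, those most like Robo2 were St8sia5 (0.94), Zfp385b (0.94) and the NMDA receptor subunit gene Grin2b (0.93), and those most like Slit3 were Cnksr2 (0.91), Phf24 (0.88) and Gm30382 (0.86). Robo1 was closest to Hs6st2 (0.79), which encodes a heparan sulphate sulphotransferase, Kif26b (0.79) and Gspt2 (0.76). Robo3 was closest to Rin1 (0.89), 1700030F04Rik (0.88) and Utp4 (0.87), Slit1 to Diras2 (0.86), 2410018L13Rik (0.86) and Gm33533 (0.84), and Slit2 to Gm46633 (0.77), Prkacb (0.76) and Camta1 (0.72).

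Whether visual experience changed the genes was asked by comparing the 4 DR with the 4 NR libraries, with genotype in the model. Slit1 rose in DR in 6 of the 8 excitatory types (3.77% of all gene and excitatory type pairs were called higher in DR), Slit2 fell in L2/3, Robo3 rose in L5PT and fell in L4, and Slit3 rose in L4 and Pvalb interneurons, whereas Robo1 and Robo2 were called in 0 types. Calls are from edgeR's likelihood ratio test at an adjusted p (Benjamini-Hochberg over all genes tested in the type) under 0.05. Of 88 gene and cell type pairs tested in 15 types, 11 (12.5%) were called, 9 higher and 2 lower, against 5.24% of all gene and cell type pairs. The median log2 fold change of the 88 pairs was 0.09, and that of all genes lay between -0.01 and 0.00 in each type. The stricter quasi-likelihood test of edgeR called 6 of the 88 (3.30% of all pairs), and DESeq2 called 11, with 13 pairs lacking an adjusted p. Robo1 and Robo2, each tested in 15 types, had 0 pairs at an unadjusted p under 0.05 and 0 calls by the quasi-likelihood test or DESeq2; their log2 fold changes ran from -0.09 to 1.51 and from -0.12 to 0.16.

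Slit1 showed the largest number of calls. In the following, the values of 4 libraries of a rearing are in the order GR-Con male, GR-Con female, GR-KO male and GR-KO female. In L6CT, Slit1 was at 90.4, 93.1, 132 and 94.9 CPM in NR and 156, 189, 237 and 204 CPM in DR. Every DR library lay above every NR library, and the log2 fold change was 0.94 (SE 0.13, adjusted p = 1.89e-11; quasi-likelihood adjusted p = 0.00412). In L2/3, it was at 20.9, 20.7, 30.8 and 21.8 CPM in NR and 37.7, 41.8, 60.7 and 37.5 CPM in DR. The groups again did not overlap, with a log2 fold change of 0.91 (SE 0.16, adjusted p = 1.96e-06; quasi-likelihood 0.00992).

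In L4, Slit1 was at 27.3, 28.0, 29.1 and 27.0 CPM in NR and 33.7, 42.0, 66.1 and 46.5 CPM in DR, so that the lowest DR library was close above the highest NR library. The log2 fold change was 0.76 (SE 0.16, adjusted p = 0.000125; quasi-likelihood 0.022). In L6IT it was at 55.9, 56.4, 62.2 and 49.5 CPM in NR and 67.6, 97.3, 92.4 and 87.3 CPM in DR, without overlap (log2 fold change 0.61, SE 0.12, adjusted p = 4.98e-05; quasi-likelihood 0.0224). These 4 calls were kept in each of the 8 fits that left out 1 library. L5PT (0.61, SE 0.18) did not overlap either, and L5IT (0.45, SE 0.14) did; their quasi-likelihood adjusted p was 0.127 and 0.0819. The L5PT call held in 3 of the 8 fits that left out 1 library (those without DR GR-Con male, DR GR-KO male or NR GR-KO male; log2 fold change 0.47 to 0.84 over the 8), and the L5IT call in 2 (those without DR GR-KO female or NR GR-KO male; 0.39 to 0.55). The L5PT call was also lost with DESeq2 (adjusted p = 0.0621) and with equal numbers of nuclei (0.94, adjusted p = 0.143), and the L5IT call without the low-count filter (adjusted p = 0.0569). L6b (0.82, SE 0.26, adjusted p = 0.153) and L5NP (0.30, SE 0.11, adjusted p = 0.141), the type with the most Slit1, were not called.

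DR and NR libraries did not overlap for Slit1 in 5 of 8 excitatory types, all with DR above; over all genes, DR lay wholly above NR in 6.14% of gene and excitatory type pairs. The share with DR wholly below NR was not counted. Being called higher in DR in 6 or more of the 8 excitatory types was true of 0.583% of 11142 genes, 65 in all. The L5NP marker Tshz2 moved with these values in L2/3. At least 3 Tshz2 UMIs were found in 8.85% to 17.8% of nuclei in the DR libraries. The share was 10.3% in the NR GR-KO male library and 0.909% to 2.25% in the other NR libraries. In the DR libraries the nuclei with at least 3 Tshz2 UMIs had Slit1 at 63.9 to 124 CPM and Slit3 at 1227 to 1389 CPM. The means of Slit1 and Slit3 were 357 and 285 CPM in L5NP and 34.0 and 1417 CPM in L2/3. Which cells these nuclei were was not tested. Without those nuclei, a choice made after seeing the data, the Slit1 difference in L2/3 was 0.70 and remained called (adjusted p = 2.92e-05). This cut cannot settle the part of other nuclei, since it leaves in all nuclei with under 3 Tshz2 UMIs, whatever their source. In L6CT the summed L5NP markers were at 5.75 to 11.9 CPM in NR and 7.22 to 18.2 CPM in DR, and in L4 at 22.0 to 50.8 CPM and 45.2 to 100.3 CPM. In L5PT they were at 54.3, 56.6, 76.5 and 5.55 CPM in NR and 113, 110, 134 and 64.6 CPM in DR, beside a Slit1 level of 9.47 CPM in that type and of 357 CPM in L5NP. In L5IT they were at 3.43 to 16.5 CPM and 10.5 to 27.5 CPM, and in L6IT at 1.16 to 4.23 CPM and 2.46 to 4.24 CPM. The sum of 3 L5IT markers also moved with Slit1 without overlap, from 270 to 293 CPM in NR to 304 to 438 CPM in DR in L6IT and from 38.9 to 59.0 CPM to 60.1 to 66.0 CPM in L4. In the L6CT nuclei the sum of 10 glial genes fell without overlap, from 968 to 1114 CPM in NR to 773 to 949 CPM in DR. The part of these markers and of the glial genes in the Slit1 values of these types was not tested.

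**Figure D2:**
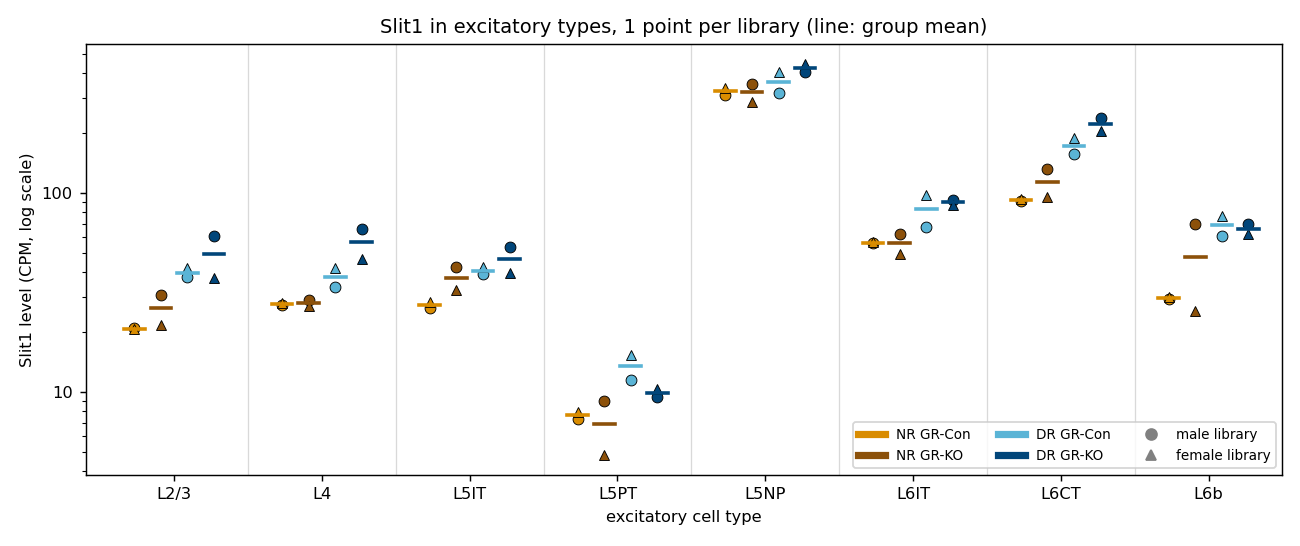
Slit1 in the 8 excitatory types, 1 point per library (CPM of summed UMIs, log axis), NR and DR side by side with the mean of each. DR points lie above all NR points in L2/3, L4, L5PT, L6IT and L6CT.

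Slit2 changed the other way in L2/3. It was at 192, 159, 165 and 142 CPM in NR and 114, 95.3, 63.5 and 96.7 CPM in DR. All DR libraries were below all NR libraries, the DR GR-KO male library lowest, and the log2 fold change was -0.84 (SE 0.16, adjusted p = 6.00e-06; quasi-likelihood 0.0103), kept in each of the 8 fits that left out 1 library. Without the nuclei with at least 3 Tshz2 UMIs it was -0.86. The sum of 3 L4 markers in the L2/3 nuclei moved with it, with ranges that overlapped. This sum was at 178, 167, 104 and 144 CPM in NR and 115, 94.2, 47.9 and 112 CPM in DR. The sum of 3 L6IT markers fell without overlap, from 16.0 to 21.5 CPM in NR to 6.89 to 9.66 CPM in DR. The part of these markers in the Slit2 values was not tested. In no other type tested was Slit2 called.

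Robo3, the receptor that does not bind Slits, was called in opposite directions in a pair of types. In L5PT it was at 63.5, 73.1, 54.5 and 28.9 CPM in NR and 82.1, 85.8, 108 and 112 CPM in DR, without overlap, the lowest value coming from the library with 59 L5PT nuclei (log2 fold change 0.84, SE 0.24, adjusted p = 0.0246; quasi-likelihood 0.134). In L4 it was at 25.9, 27.8, 30.3 and 30.4 CPM in NR and 25.0, 16.9, 21.8 and 19.8 CPM in DR, a small difference without overlap (-0.41, SE 0.13, adjusted p = 0.0258; quasi-likelihood 0.0622). The L5PT call was lost without DR GR-KO female, DR GR-KO male, NR GR-Con male or NR GR-KO male (0.59 to 0.98 over the 8 fits) and with equal numbers of nuclei (0.89, adjusted p = 0.139), and the L4 call was held only without DR GR-Con male (-0.56 to -0.31). Slit3 rose slightly in L4 (0.31, SE 0.11, adjusted p = 0.0433; quasi-likelihood 0.0539) and in Pvalb interneurons (0.34, SE 0.09, adjusted p = 0.0154; quasi-likelihood 0.0432); the first held only without DR GR-Con female (0.25 to 0.37) and the second without DR GR-Con male, DR GR-KO female or NR GR-KO male (0.28 to 0.42). The L5NP markers in L5PT, given above for Slit1, were lowest in the NR GR-KO female library, as was Robo3. The mean level of Robo3 was 3.48 CPM in L5NP and 76.0 CPM in L5PT. In the L4 nuclei the L5IT markers rose without overlap, as given above. The sum of 3 L6CT markers there fell without overlap, from 48.4 to 51.7 CPM in NR to 34.2 to 46.4 CPM in DR. The part of these markers in the Robo3 and Slit3 calls of L5PT and L4 was not tested.

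**Figure D3:**
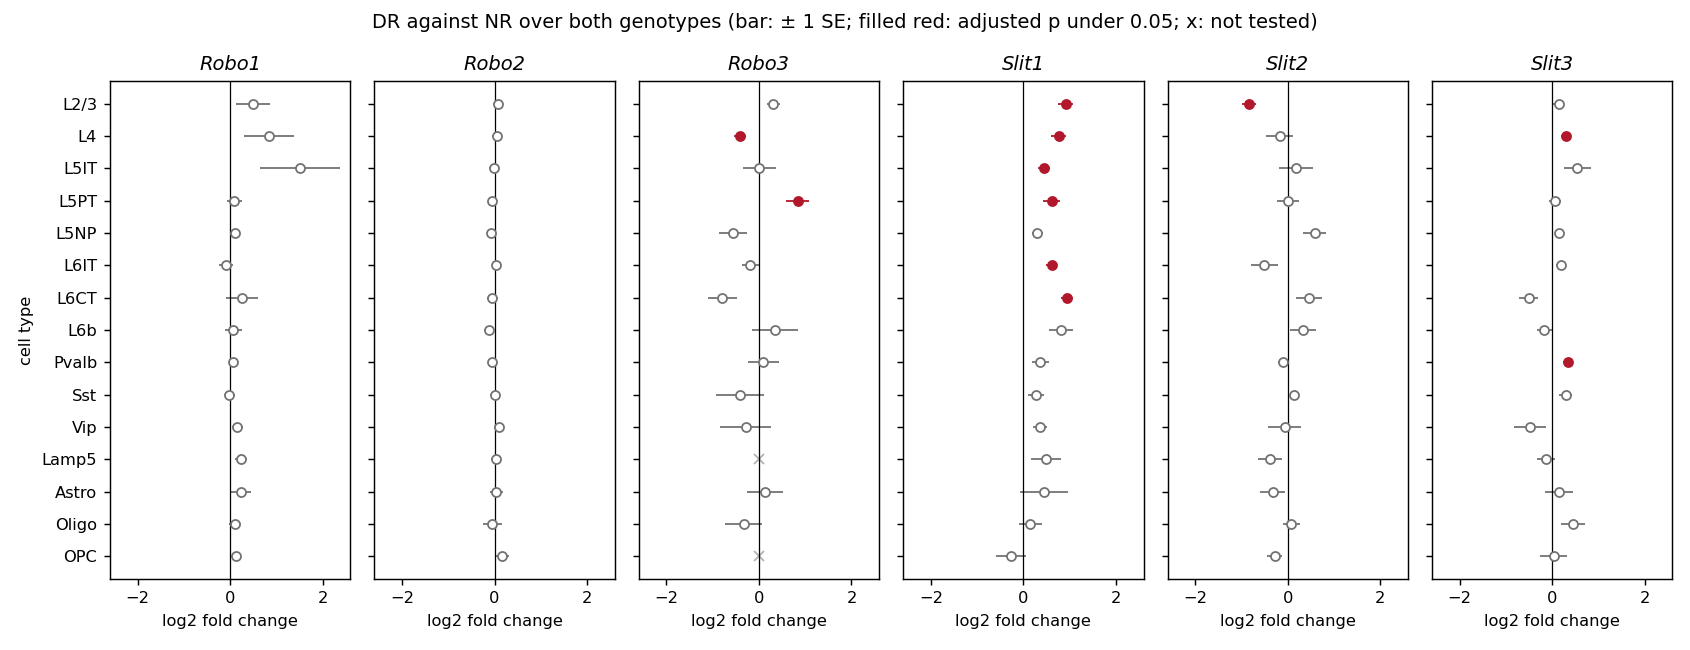
Difference of DR and NR over both genotypes (log2 fold change, 8 libraries) for the 6 genes in each type tested, with bars of 1 SE and filled points for pairs called by the likelihood ratio test. Slit1 lies to the right in most excitatory types, Slit2 in L2/3 to the left, and the Robo1 points in L4 and L5IT have the widest bars.

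The share of nuclei with at least 1 UMI was compared after thinning each nucleus to 5000 UMIs, with an exact two-sided permutation test over libraries, whose smallest possible p with 4 against 4 is 0.0286. Of 24 pairs, namely those called in a comparison of rearings in types with a value in all 8 libraries (which leaves out VLMC) and Robo1 in L6CT and L6IT, 5 reached that p, and the smallest p adjusted over the 24 tests was 0.137. Since nearly all of the pairs were chosen for a call on the same counts, these shares describe the calls and are no independent support for them. Slit1 was found in 37.6% ± 4.03 of L6CT nuclei in NR (SD, n = 4) and 57.7% ± 6.94 in DR, in 12.3% ± 0.638 and 20.1% ± 5.25 of L4 nuclei, and in 10.2% ± 1.34 and 16.3% ± 4.03 of L2/3 nuclei (exact permutation p = 0.0286 each). Slit2 was found in 47.0% ± 4.63 of L2/3 nuclei in NR and 30.9% ± 5.84 in DR, and Robo3 in 19.2% ± 6.27 and 30.2% ± 4.07 of L5PT nuclei (exact permutation p = 0.0286 each). Without thinning the exact p of Slit2 in L2/3 was 0.0286, and Slit1 gave an exact p of 0.0571 in L6CT, 0.2 in L4 and 0.371 in L2/3 and Robo3 in L5PT 0.371. With thinning to 2000 UMIs, Slit1 in L4 (exact p = 0.0571) and Robo3 in L5PT (exact p = 0.0857) were above the smallest p and the other 3 at it. For comparison, with thinning to 5000 UMIs Slit1 was found in 1.48% of astrocytes and 2.43% of oligodendrocytes, Slit2 in 5.14% and 13.1%, and Robo3 in 1.17% and 0.901%, types with median depths of 6107 and 8864 UMIs against 15198 or more in each library of these 4 excitatory types.

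In the GR-Con mice alone, DR against NR with 2 libraries each, Robo1 stood out in the upper layers and in L5IT. Of 86 pairs 13 (15.1%) were called, against 2.25% of all pairs. Of the 13, 11 were higher in DR and 2 lower. By the quasi-likelihood test 3 pairs were called, and by DESeq2 9. This comparison shares its libraries with the one over both genotypes. In L5IT, Robo1 was at 14.6 and 13 CPM in NR GR-Con and 167 and 96.4 CPM in DR GR-Con. The groups were far apart, with a log2 fold change of 3.26 (SE 0.30, adjusted p = 2.65e-25; quasi-likelihood 0.00226) that was called by DESeq2 too and in each of the 4 fits that left out 1 library.

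The GR-KO libraries did not keep that order. In L5IT they were at 179 CPM (male) and 25.9 CPM (female) in NR and 137 and 37.5 CPM in DR, so the spread within each GR-KO group was wider than the difference between them (log2 fold change -0.22, SE 0.86, adjusted p = 0.983). In L4 Robo1 was at 79.4 and 62.1 CPM in NR GR-Con, 243 and 170 CPM in NR GR-KO, 403 and 136 CPM in DR GR-Con and 228 and 101 CPM in DR GR-KO. In L2/3 the values were 347 and 319 CPM, 933 and 483 CPM, 1045 and 523 CPM, and 739 and 465 CPM in the same order. In both types the NR GR-Con libraries were the lowest of the 8 and a male library was the highest. DR against NR in GR-Con gave 1.96 in L4 (SE 0.50, adjusted p = 0.00559; quasi-likelihood 0.203) and 1.20 in L2/3 (SE 0.35, adjusted p = 0.0109; quasi-likelihood 0.133); both calls were lost without either NR GR-Con library (0.94 to 2.54 and 0.58 to 1.62 over the 4 fits). The L5NP markers in the L2/3 nuclei moved with these values, at 6.03 and 4.40 CPM in NR GR-Con and 167 and 107 CPM in DR GR-Con, as did the L4 markers given above for Slit2. Without the nuclei with at least 3 Tshz2 UMIs the L2/3 difference of Robo1 was 1.16 (adjusted p = 0.0202). In the nuclei that were left, Robo1 was at 346 and 321 CPM in NR GR-Con and 1029 and 498 CPM in DR GR-Con. In GR-KO it was at 835 and 484 CPM in NR and 700 and 448 CPM in DR. The 8 libraries kept their order, and the part of other nuclei in it was not tested.

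**Figure D4:**
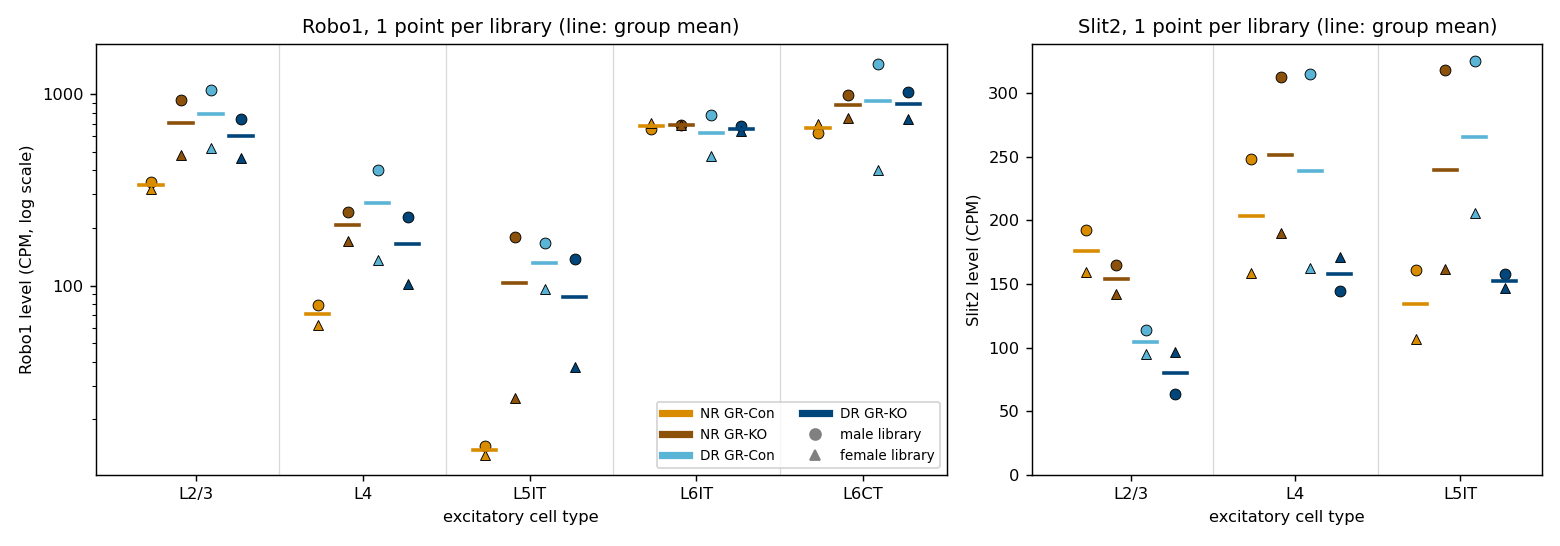
Robo1 in L2/3, L4, L5IT, L6IT and L6CT (log axis) and Slit2 in L2/3, L4 and L5IT (linear axis), by library. Values are CPM of summed UMIs, with males and females marked, in the order of the 4 groups. The types shown are not only those with a call. Both NR GR-Con libraries are lowest for Robo1 in L2/3 and L4, and all 4 DR libraries are lowest for Slit2 in L2/3.

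Over the 32 comparisons of a male and a female library of 1 group in an excitatory type, the male library was higher in 24 for Robo1 and 25 for Slit2, in 7 for Robo3 and in 11, 15 and 16 for Robo2, Slit1 and Slit3. Each group has 1 library of each sex, so sex and animal cannot be told apart within a group. The sum of 3 L4 markers in the L5IT nuclei was 788 and 896 CPM in NR GR-Con, 402 and 716 CPM in NR GR-KO, 315 and 430 CPM in DR GR-Con and 320 and 479 CPM in DR GR-KO. The 3 libraries with the highest Robo1 in L5IT had the 3 lowest marker sums; the part of this in the Robo1 values was not tested.

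Among L5IT nuclei thinned to 5000 UMIs, 69.6% to 97.4% of a library had no Robo1 UMI. At the same thinning Robo1 was found in 32.5% of astrocytes and 24.2% of oligodendrocytes, pooled over the libraries. Unthinned, nuclei with 10 or more Robo1 UMIs were 1.01% and 0.708% of the type in NR GR-Con (4 and 3 nuclei), 15.4% and 1.57% in NR GR-KO, 14.4% and 8.19% in DR GR-Con and 10.3% and 1.81% in DR GR-KO. With each nucleus thinned to 5000 UMIs, 3 or more Robo1 UMIs were seen in 0.758% and 0.472% of nuclei in NR GR-Con, 9.76% and 0.784% in NR GR-KO, 9.41% and 5.57% in DR GR-Con and 8.83% and 2.08% in DR GR-KO. Thinning is a random draw. A second draw at 5000 UMIs gave 0.253% and 0.236%, 9.22% and 0.784%, 8.86% and 5.05%, and 7.98% and 1.56% in the same order.

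**Figure D5:**
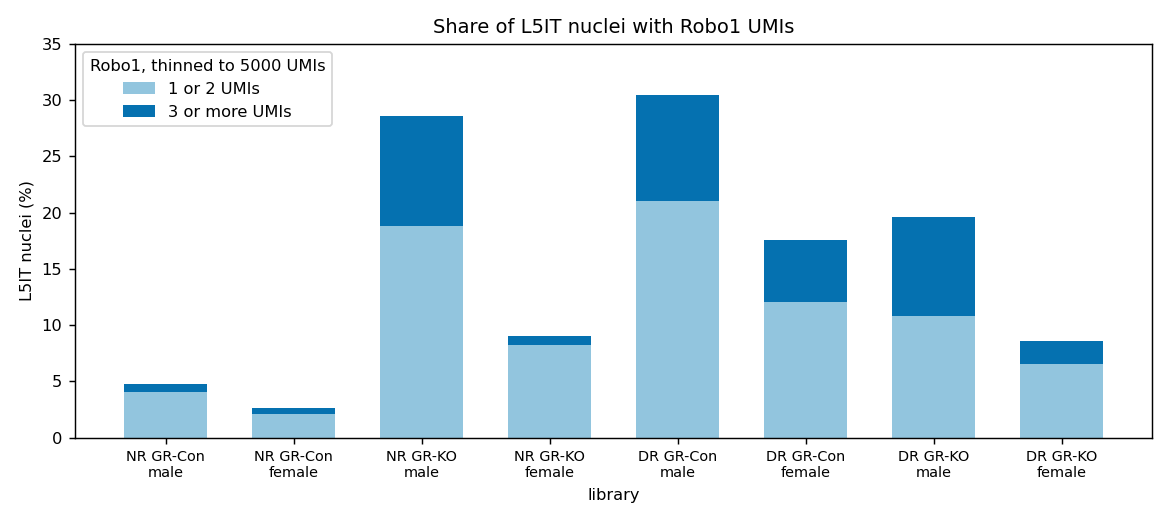
Share of L5IT nuclei by number of Robo1 UMIs in each library, each nucleus thinned to 5000 UMIs (percent of nuclei). In the random draw shown, nuclei with 3 or more UMIs are under 1% in both NR GR-Con libraries and the NR GR-KO female library and 2.08% to 9.76% in the other 5.

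Slit1 was called higher in GR-Con DR in L2/3 (0.89, SE 0.14), L5IT (0.57, SE 0.15), L5PT (0.81, SE 0.21), L6CT (0.91, SE 0.17) and L6b (1.20, SE 0.20), with quasi-likelihood adjusted p-values of 0.0159, 0.0306, 0.0996, 0.118 and 0.059. The L5IT, L5PT and L6CT calls were lost without either NR GR-Con library. In the L6b nuclei the summed L5NP markers were at 6.09 and 5.86 CPM in NR GR-Con and 58.9 and 22.5 CPM in DR GR-Con. Their part in the L6b call of Slit1 was not tested. Slit2 was lower in L2/3 (-0.79, SE 0.18) and higher in L5IT (0.99, SE 0.28), and Slit3 was higher in L5IT (1.06, SE 0.27) and in oligodendrocytes (1.06, SE 0.25) and lower in L6CT (-0.90, SE 0.22). None of these 5 was called by the quasi-likelihood test (adjusted p = 0.0512 to 0.279), and each was lost without at least 1 of the NR GR-Con libraries. The fall of the L4 markers in the L5IT nuclei from NR GR-Con to DR GR-Con, given above for Robo1, accompanies the L5IT calls of Slit1, Slit2 and Slit3 as well, and its part in them was not tested. In the L6CT nuclei the glial genes were at 1028 to 1114 CPM in NR GR-Con and 797 to 949 CPM in DR GR-Con. Their part in the L6CT calls of Slit1 and Slit3 was not tested.

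In the GR-KO mice alone, 12 of 99 pairs (12.1%) were called in DR against NR, against 3.66% of all pairs. DR was higher in 6 and lower in 6. By the quasi-likelihood test 3 pairs were called, and by DESeq2 11. Slit1 was higher in L2/3 (0.95, SE 0.29), L4 (1.06, SE 0.20), L6IT (0.70, SE 0.15) and L6CT (0.98, SE 0.21), and Slit2 was lower in L2/3 (-0.88, SE 0.26), L6IT (-1.02, SE 0.26) and Vip interneurons (-1.11, SE 0.25). Of these 7 the L4 call of Slit1 was kept in each of the 4 fits that left out 1 library. It was also kept by the quasi-likelihood test (adjusted p = 0.0484). The others were lost in 1 or 2 of the 4 fits, each time including a fit without a DR GR-KO library. In the L4 nuclei the summed L5NP markers were at 22.0 and 37.8 CPM in NR GR-KO and 82.4 and 100.3 CPM in DR GR-KO. Their part in the L4 call of Slit1 was not tested. Robo3 was higher in L2/3 (0.58, SE 0.18) and L5PT (1.39, SE 0.28) and lower in L4 (-0.48, SE 0.14), at quasi-likelihood adjusted p-values of 0.0784, 0.249 and 0.053; all 3 calls were lost without the DR GR-KO female library.

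VLMC, few in number, gave the largest fall of any ligand. Slit3 was at 605 and 429 CPM in NR GR-Con, 985 and 595 CPM in NR GR-KO, 162 CPM in DR GR-Con male and 40.6 and 33.4 CPM in DR GR-KO, with 20 to 104 nuclei per library (the DR GR-Con female library had 3 and gave no value). In GR-KO the log2 fold change of Slit3 was -4.65 (SE 0.48, adjusted p = 2.19e-19; quasi-likelihood 0.00108) and that of Slit2 -2.14 (SE 0.45, adjusted p = 4.4e-05; quasi-likelihood 0.0144), both kept in each of the 4 fits that left out 1 library. The sum of 10 excitatory neuron genes in these nuclei moved the same way, from 3786 to 4946 CPM in NR to 717 to 1314 CPM in DR, while the sum of 3 VLMC markers was at 433 to 612 CPM in NR and 995 to 1190 CPM in DR. The part of neuronal RNA in the Slit values of VLMC was not tested.

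The effect of the astrocyte GR deletion was asked over both rearings and within each. Over both rearings 0 of 88 pairs were called by the likelihood ratio test, against 0.400% of all pairs. The quasi-likelihood test and DESeq2 also called 0. An unadjusted p under 0.05 was found for 12 pairs, a count for which no share of all pairs was taken. Robo1 in L5IT had the largest value for a receptor, 1.14 (SE 0.86, adjusted p = 1).

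In NR, 8 of 98 pairs (8.16%) were called, against 0.804% of all pairs, all higher in GR-KO, and 7 of them were in astrocytes, oligodendrocytes or their precursors (OPC). In astrocytes Slit3 was at 14.5 and 14.2 CPM in GR-Con and 31.2 and 37.1 CPM in GR-KO, without overlap (log2 fold change 1.19, SE 0.19, adjusted p = 4.82e-08; quasi-likelihood 0.0035). Robo1 in astrocytes was at 74.2 and 66.2 CPM in GR-Con and 139 and 116 CPM in GR-KO, also without overlap (0.79, SE 0.15, adjusted p = 1.54e-05; quasi-likelihood 0.00545). Both calls were kept in each of the 4 fits that left out 1 library. The share of all genes without overlap in this contrast of 2 against 2 libraries was not counted. Slit1 (1.52, SE 0.39; quasi-likelihood adjusted p = 0.0454) and Robo3 (1.44, SE 0.41; 0.0811) were called in astrocytes on 9 to 44 and 7 to 46 UMIs per library over all 8 libraries; the Slit1 call was held only without NR GR-KO female and the Robo3 call was lost without NR GR-Con male or NR GR-KO female.

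Slit3 was also called in OPC (1.43, SE 0.30; quasi-likelihood adjusted p = 0.0223), lost without NR GR-KO female (0.97 to 1.80 over the 4 fits), and in oligodendrocytes (1.08, SE 0.24; 0.135), lost without either NR GR-Con library (0.73 to 1.36). Robo2 in oligodendrocytes (0.72, SE 0.21; quasi-likelihood adjusted p = 0.269) held only without NR GR-KO male. The summed excitatory neuron genes in the same nuclei were 452 to 575 CPM in NR GR-Con astrocytes and 759 to 766 CPM in NR GR-KO astrocytes, 316 to 384 and 570.2 to 677 CPM in oligodendrocytes, and 701 to 839 and 1046 to 1125 CPM in OPC. They moved with each of these 7 calls, and their part in them was not tested. In DR the same sums in astrocytes were 414 to 626 CPM in GR-Con and 466 to 473 CPM in GR-KO, and Slit3 there was at 16.6 and 35.4 CPM in GR-Con and 26.0 and 19.8 CPM in GR-KO, overlapping.

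The remaining call in NR beyond glia was Robo1 in L4, whose library values are given above (1.54, SE 0.24, adjusted p = 4.42e-07). It was kept in each of the 4 fits that left out 1 library and by DESeq2, but its quasi-likelihood adjusted p was 0.898. In L5IT the same contrast of Robo1 was 2.89 (SE 0.76, adjusted p = 0.0578).

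In DR, 2 of 88 pairs (2.27%) were called, against 0.513% of all pairs, both for Slit2 and both lower in GR-KO. In Vip interneurons Slit2 was at 17.6 and 25.4 CPM in DR GR-Con and 7.94 and 9.44 CPM in DR GR-KO. The log2 fold change was -1.28 (SE 0.26, adjusted p = 0.00163; quasi-likelihood 0.178), a call lost without DR GR-KO male (-1.51 to -1.0 over the 4 fits). In L6b it was at 71.1 and 97.7 CPM and at 42.0 and 45.2 CPM (-0.94, SE 0.21, adjusted p = 0.00984; quasi-likelihood 0.274), a call held only without DR GR-Con male (-1.14 to -0.71). DESeq2 called 3 of the 88 and the quasi-likelihood test 0.

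Whether the genotype difference depended on rearing was tested by the product of both terms over the 8 libraries. Of 88 pairs 2 (2.27%) were called, against 0.181% of all pairs. The quasi-likelihood test (0.00276% of all pairs) and DESeq2 called 0. With a sex term 12 pairs were called, and 26 had an unadjusted p under 0.05 without it. No share of all pairs was taken for the sex term or for unadjusted p-values. The genotype difference of Slit1 in astrocytes was larger in NR than in DR by 2.72 on the log2 scale (SE 0.61, adjusted p = 0.00405; quasi-likelihood 0.265). Its levels were 1.23 and 1.34 CPM in NR GR-Con, 4.27 and 3.54 CPM in NR GR-KO, 3.56 and 5.94 CPM in DR GR-Con and 2.01 and 1.95 CPM in DR GR-KO, on 198 UMIs in all. The difference of Slit2 in Vip interneurons was larger in NR by 2.08 (SE 0.43, adjusted p = 0.00445; quasi-likelihood 0.633), with 7.5 and 14.9 CPM in NR GR-Con and 18.0 and 20.7 CPM in NR GR-KO. The Slit1 call held in 3 of the 8 fits that left out 1 library (those without DR GR-Con female, DR GR-Con male or NR GR-KO female; 2.35 to 3.04), and the Slit2 call in 5 (lost without DR GR-Con female, DR GR-KO male or NR GR-Con male; 1.65 to 2.64). For Robo1, the genotype difference in L5IT was larger in NR by 3.48 (SE 1.09, adjusted p = 0.122) and in L4 by 2.23 (SE 0.73, adjusted p = 0.269).

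Other genes of the pathway were read from 3 lists chosen for their roles. The share of all genes called in at least 1 type was not computed, so the counts of genes below have no background. Of 10 other receptors, ligands and co-receptors, 9 could be tested, and 5 were called in DR against NR over both genotypes, in 12 of 135 pairs (8.89%), all higher, with a median log2 fold change of 0.10. They were the semaphorin receptor gene Plxna1 (1.00 in L6CT, SE 0.17), the glypican Gpc1 (0.87 in L6CT, SE 0.17) and the syndecan Sdc3 (0.57 in L2/3, SE 0.13), heparan sulphate proteoglycans of the kind that bind Slits, the Robo ligand Nell1 (0.37 in Pvalb, SE 0.09) and N-cadherin, Cdh2 (0.28 in L2/3, SE 0.10). In GR-Con alone this list gave 5 higher and 0 lower called pairs (3.7%, against 2.25% of all pairs). In GR-KO alone it gave 7 higher and 7 lower (9.21%, against 3.66%). Of 25 intracellular effectors, 9 were called in 7.18% of 362 pairs, 19 higher and 7 lower, with a median of 0.05. The Slit-Robo GTPase-activating proteins Srgap3 (0.95 in L6CT, SE 0.14; called higher in 5 types) and Srgap2 (0.51 in L6CT, SE 0.11; 3 types) and the adaptor Nck2 (0.56 in L6IT, SE 0.11; 4 types) rose, as did the actin regulator Cap2 (0.42 in L4, SE 0.11), and its paralogue Cap1 fell (-0.38 in L6IT, SE 0.10; 3 types). The effectors gave 6 higher and 0 lower called pairs in GR-Con alone (1.67%) and 15 higher and 4 lower in GR-KO alone (4.42%).

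Of 10 netrin genes, the companion guidance system, 6 were called in 6.35% of 126 pairs, 7 higher and 1 lower, with a median of 0.05, shares that can be read against the 5.24% of all pairs. Ntn1, which encodes netrin-1, rose in L6CT (0.86, SE 0.18) from 1.89 to 3.13 CPM in NR to 4.26 to 4.85 CPM in DR, and the receptor genes Unc5a (0.59 in L6CT, SE 0.16), Unc5b (1.13 in Lamp5, SE 0.26) and Unc5d (0.29 in Lamp5, SE 0.09) rose. Draxin was called lower in L2/3 at no more than 0.209 CPM in any library. Within a genotype the netrin calls went both ways. They were 7 higher and 6 lower in GR-Con (10.5%, against 2.25% of all pairs) and 9 higher and 6 lower in GR-KO (10.6%, against 3.66%). Over both rearings GR-KO against GR-Con gave 3 calls among the effectors and 1 among the netrin genes, all in astrocytes and making up 0.829% and 0.794% of their pairs, against 0.400% of all pairs. Cables1 fell (-1.0, SE 0.20), and Srgap1 (0.60, SE 0.14), Srgap3 (0.37, SE 0.10) and the netrin receptor gene Unc5c (0.81, SE 0.11) rose. The summed excitatory neuron genes in astrocytes were at 452 to 575 CPM in NR GR-Con and 759 to 766 CPM in NR GR-KO. In DR the ranges of this sum overlapped. Its part in these astrocyte calls was not tested. In NR alone the lists of 10 receptors and ligands, 25 effectors and 10 netrin genes gave 1 higher and 0 lower, 2 higher and 1 lower, and 3 higher and 1 lower called pairs. These were 0.671%, 0.737% and 2.99% of their pairs, against 0.804% of all pairs.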

How the data were processed

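The UMI counts per gene and nucleus were deposited by the authors, who aligned reads to mm10 (Cell Ranger 8.0.1) with a GTF that held eGFP and analysed them with Seurat 5.3.0; nuclei were sorted by DRAQ5 per the labels and as DRAQ5-positive and GFP-negative per the study's methods, and nuclei with under 500 or over 70000 gene counts, predicted doublets and clusters without markers were removed. Counts were summed per library and deposited cell type and fitted with edgeR 4.0.16 (R 4.3.3): filterByExpr, TMM, likelihood ratio test, two-sided, Benjamini-Hochberg over all genes of a type, types with at least 10 nuclei in every library of the fit. SE is the log2 fold change over the square root of the likelihood ratio. The likelihood ratio test follows the study's methods, and adjusted p-values of the quasi-likelihood test are printed beside it. DESeq2 1.42.0 was an alternative. Shares of all pairs were taken for every comparison with the likelihood ratio test. For the quasi-likelihood test they were taken only for DR against NR over both genotypes and for the interaction. None was taken for DESeq2, for alternative settings or for unadjusted p-values. The alternatives were 2 tests, RLE size factors, no low-count filter, a sex term, equal numbers of nuclei, nuclei with at least 2000 UMIs, 1 fit of 8 libraries and leaving out each library.

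Library names carry rearing, vector and sex but no replicate number, so libraries were matched to groups only. Total counts were 168632129 to 288774016 UMIs per library, which limits precision mainly for genes with few UMIs. The 6 genes are described by their levels, and fold changes are given for pairs called in at least 1 comparison (ranges for Robo1 and Robo2 over all types, and Slit1 in L5NP, were added after the values were seen); for likeness, the 3 genes with the highest correlation over cell types among genes with at least 10 CPM in a type were named, and for each pathway list up to 5 called genes with the smallest adjusted p. The genes, lists and tests were chosen with earlier results of these data known.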

Additional observations from a re-analysis of the deposited data

Results flagged for a closer look

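In 2 gene and cell type pairs the genotype difference in NR was not the same as in DR by the test of that difference (edgeR likelihood ratio test of the product of genotype and rearing over 8 libraries). For Slit1 in astrocytes GR-KO against GR-Con was larger in NR than in DR by 2.72 on the log2 scale (adjusted p = 0.00405), higher in GR-KO in NR in both libraries and lower in both in DR, on 198 UMIs. For Slit2 in Vip interneurons it was 2.08 (adjusted p = 0.00445), also higher in GR-KO in both NR libraries and lower in both DR libraries. Neither passed the quasi-likelihood test (adjusted p = 0.265 and 0.633); DESeq2 gave 0.135 for Slit2 in Vip and no adjusted p for Slit1 in astrocytes. The cause was not tested.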

How the results depend on the processing

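The 48 calls were counted over the 7 comparisons, so that 1 pair can count more than once. They were recomputed under the alternative settings. Of the 630 results, 472 kept direction and call, 158 lost the call and 0 reversed. All 48 calls held with RLE size factors, with nuclei of at least 2000 UMIs and with a sex term; 45 of 48 held without the low-count filter, 40 of 48 with equal numbers of nuclei, 33 of 44 with DESeq2 (pairs with an adjusted p), 20 of 33 with 8 libraries in 1 fit, 16 of 48 with the quasi-likelihood test, and 154 of 244 when 1 library was left out. Among the choices made after seeing the data, 8 of 8 held in L2/3 nuclei with under 3 Tshz2 UMIs. The Tshz2 cut cannot settle the part of other nuclei in the L2/3 calls. Without the DR GR-Con male and NR GR-KO male libraries 12 of 13 held.

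In counts of called pairs, DR against NR over both genotypes had 11, with 6 in the quasi-likelihood test, 21 without those 2 libraries and 5 to 17 when 1 library was left out. DR against NR in GR-Con had 13, with 3 in the quasi-likelihood test and 6 to 27 when 1 library was left out. In GR-KO it had 12, with 3, 19 with a sex term, 7 with 8 libraries in 1 fit and 4 to 25 when 1 library was left out. KO against Con over both rearings had 0, with 1 with a sex term, 1 without the 2 libraries and 0 to 2 when 1 library was left out. In NR it had 8, with 4 in the quasi-likelihood test, 4 with DESeq2, 14 with a sex term, 4 with 8 libraries in 1 fit and 5 to 16 when 1 library was left out. In DR it had 2, with 0, 7 with a sex term, 1 with 8 libraries in 1 fit and 1 to 12 when 1 library was left out. The interaction had 2, with 0 in the quasi-likelihood test and 0 with DESeq2, 12 with a sex term, 13 without the 2 libraries and 1 to 7 when 1 library was left out. Of the 24 shares of nuclei 5 reached the smallest p at 5000 UMIs, 6 at 2000 UMIs (3 of the 5 among them) and 2 without thinning (1 of the 5 among them). The highest cell type was the same with TMM-scaled sizes for 5 of 6 genes (Robo1 moved from Vip to L5PT) and with means over nuclei for 4 of 6 (Robo1 moved to Pvalb and Robo3 to L2/3). No cause of these differences was tested. No paired analysis was possible because the library names carry no replicate numbers; the sex term sets libraries of the same sex side by side, and nothing says that they pair. With 2 libraries per group, 1 of each sex, sex and animal cannot be told apart within a group, and low levels such as Slit1 in astrocytes rest on few UMIs.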
